A study of Mus musculus with 4 samples.

Results

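The genes described here were the core of the BCL2 family of apoptosis regulators and the p53 axis, in mouse blastocysts. They were 10 genes, taken by their symbols: the apoptosis inhibitors Bcl2l1, Mcl1 and Bcl2, the effectors Bax and Bak1, the BH3-only genes Bad, Bid and Bcl2l11, and the p53 gene Trp53 with its ubiquitin ligase gene Mdm2. All 10 were listed once in each assay, among 20714 symbols listed in both. The series compares transcription and translation around the oocyte-to-embryo transition. Its blastocyst libraries were 2 replicates of RNA-seq (Smart-seq2, which amplifies polyadenylated mRNA) and 2 replicates of Ribo-seq (Ribo-lite, a low-input form of ribosome profiling). Ribo-seq reads the mRNA pieces that ribosomes protect from RNase I, called ribosome-protected fragments (RPF) or footprints.

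All 4 libraries came from untreated wild-type embryos of 4-week-old C57BL/6J females mated with PWK/PhJ males. The strain field of the labels reads C57BL/6N x PWK instead. The females were injected with the hormones PMSG and hCG to induce ovulation. The paper cautions that superovulation and culture outside the body may affect embryo quality. Embryos were taken at the 8-cell stage, cultured in KSOM medium to blastocysts, and stripped of the zona pellucida. The Ribo-seq lysis buffer held cycloheximide, which stalls ribosomes. Nothing in the labels says whether replicates were separate collections, so their spread may be technical. Whole embryos were lysed, so fewer cells of a type and less RNA per cell cannot be told apart. All 7 trophectoderm markers were at 1 FPKM or more in both RNA-seq replicates, as were 3 of 6 epiblast and 2 of 6 primitive endoderm markers, and in both Ribo-seq replicates all 6 of each list were. The summed epiblast markers stood at 165 and 60.1 FPKM in the RNA-seq replicates and at 896 and 1100 FPKM in the Ribo-seq replicates. All 6 cumulus and granulosa markers were listed at 0 in all 4 libraries, and so were 5 of 7 oocyte markers, 3 of 4 blood markers and 3 of 4 sperm markers. The summed blood markers stood at 1.62 and 0.729 FPKM in the RNA-seq replicates and at 0 in Ribo-seq. The summed sperm markers stood at 33.7 FPKM in Ribo-seq replicate 2 and at 0 in the other libraries.

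The mitochondrial pathway of apoptosis turns on contacts between these proteins. Bax and Bak1 permeabilise the outer mitochondrial membrane, inhibitors such as Mcl1 and Bcl2l1 hold them in check, and BH3-only proteins bind the inhibitors or the effectors through a short helix, the BH3 region. The p53 protein is a transcription factor that induces several of these genes after DNA damage, and Mdm2 marks p53 for degradation. The blastocyst removes some of its cells by apoptosis, mainly in the inner cell mass.

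The shared feature of the 8 family genes is the BH3 region. The lines below give 39 bases of coding sequence around its signature from the reference annotation, 5′ to 3′ in the coding direction, with the codons of the leucine and of the following glycine and aspartate in capitals. In Bad the glycine is a serine. The inhibitors Mcl1, Bcl2l1 and Bcl2 come first, then the effectors Bax and Bak1, then the BH3-only genes Bad, Bid and Bcl2l11.
Mcl1: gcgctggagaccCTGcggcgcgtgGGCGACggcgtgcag
Bcl2l1: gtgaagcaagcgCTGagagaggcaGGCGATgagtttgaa
Bcl2: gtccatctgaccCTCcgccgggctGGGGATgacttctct
Bax: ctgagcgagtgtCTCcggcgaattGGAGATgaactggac
Bak1: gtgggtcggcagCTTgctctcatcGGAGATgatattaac
Bad: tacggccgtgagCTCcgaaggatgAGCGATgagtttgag
Bid: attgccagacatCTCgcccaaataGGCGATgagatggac
Bcl2l11: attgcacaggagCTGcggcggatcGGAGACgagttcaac
In NCBIM37 coordinates these lie at chr3:95463347-95463385 on the plus strand for Mcl1 (exon 2) and at chr2:152655433-152655471 on the minus strand for Bcl2l1 (exon 2). That of Bcl2 lies at chr1:108609152-108609190 on the minus strand (exon 1). Those of Bax and Bak1 lie at chr7:52721367-52721405 (exon 3) and chr17:27159476-27159514 (exon 4), both on the minus strand. Those of Bad and Bcl2l11 lie at chr19:7025270-7025308 (exon 3) and chr2:127972874-127972912 (exon 3), both on the plus strand. That of Bid lies at chr6:120847307-120847345 on the minus strand (exon 4). Each of the 8 windows lay within 1 coding exon, and the signature (leucine, 3 residues, glycine or serine, aspartate) occurred once in each coding sequence. It is short, and 24.1% of 22594 annotated mouse coding sequences held it, or 12.2% with glycine alone. Between pairs of the 8 windows, 13 (Mcl1 and Bid) to 23 (Bak1 with Bid and with Bcl2l11) of 39 bases were identical. Bcl2 and Bcl2l1 shared 20. Footprints are about as long as the 28-base windows that were matched to the genome, and no such window of the Bcl2l1, Bcl2, Bax, Bak1, Bad, Bid or Bcl2l11 coding sequence had a second place in the genome. Of 969 windows of Mcl1, 24 matched chromosome 5, and 4 had 2 or more places.

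Levels were FPKM (fragments per kilobase of length, scaled to the depth of the library), a value per length. Genes can therefore be compared within a library, with a limit in Ribo-seq. Lengths appear to be effective lengths for fragments of mean 200 and SD 80 bases, longer than footprints. Such lengths raise the RPF level of short coding sequences. In Ribo-seq replicate 1, 1 footprint was worth 4.96 FPKM in Bax (579 bases) and 2.36 FPKM in Mcl1 (996 bases). The RPF order, class sums and RPF minus mRNA were not corrected for this. RNA-seq values were per transcript length and Ribo-seq values per coding length. The steps between low FPKM values implied 5474595 and 5198509 counted fragments in RNA-seq replicates 1 and 2, but only 532297 and 483012 footprints in the Ribo-seq replicates. For a sequence of 1000 bases, 1 footprint was worth 2.35 and 2.59 FPKM in Ribo-seq replicates 1 and 2, and 1 RNA-seq fragment 0.228 and 0.241 FPKM. Intervals below are exact Poisson intervals on the implied counts at the 95% level, and they and the floor of 3 fragments cover counting error only. With 2 against 2 libraries, an exact permutation test cannot go below p = 0.333, so the levels are given as a description.

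Mcl1 was the member with the highest mean RPF level, while its mRNA level was in the middle of the 10. Mcl1 encodes a short-lived inhibitor that binds Bak1, Bax and Bcl2l11 proteins (chr3:95462643-95467099, plus strand, 4 exons). In RNA-seq it stood at 10.8 and 12.04 FPKM, from 194 and 206 fragments. Its RPF level was 168 and 132 FPKM, from 71 and 51 footprints with intervals of 131 to 211 and 98.8 to 175 FPKM. Both replicates of each assay were close, and the mean RPF level lay above 93.4% of all genes listed in Ribo-seq, against 85.7% for the mRNA level in RNA-seq.

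Bcl2l1 encodes BCL-XL and its short isoform, which the deposited gene values do not separate (chr2:152593052-152657464, minus strand, 3 exons). The mRNA was at 9.21 and 15.8 FPKM, from 112 and 182 fragments. This range contained both Mcl1 values. Its RPF level was 60.0 FPKM (16 footprints) in replicate 1 and 8.26 FPKM (2 footprints, under the floor) in replicate 2. The intervals of 33.8 to 96.2 and 0.988 to 29.5 FPKM did not overlap, and 4.96% of the genes tested below had as large a difference between the Ribo-seq replicates. The RPF level of Bcl2l1 therefore depended on the library, and the ratio of Mcl1 to Bcl2l1 with it. This ratio was 2.81 in replicate 1, with an exact counting interval of 1.63 to 5.22. In replicate 2, on 2 Bcl2l1 footprints, the ratio was 16.0 with an interval of 4.28 to 138. In the mRNA the same ratio was 1.17 (interval 0.922 to 1.49) and 0.763 (0.623 to 0.938), on either side of equality. Only the interval of RNA-seq replicate 2 excluded equality, with Bcl2l1 the higher.

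Bcl2, the founding inhibitor of the family, was near the limit of detection (chr1:108434755-108610851, minus strand, 2 exons). No RNA-seq fragment was implied in replicate 1 and 4 in replicate 2 (0.1001 FPKM), along the longest transcript of the 10 genes, 7191 bases. No footprint was seen in either replicate, which allows up to 11.04 and 12.2 FPKM at the floor of 3 footprints. At the Ribo-seq depth, a Bcl2 level at the lower of the Bcl2l1 values could not have been detected reliably.

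**Figure D1:**
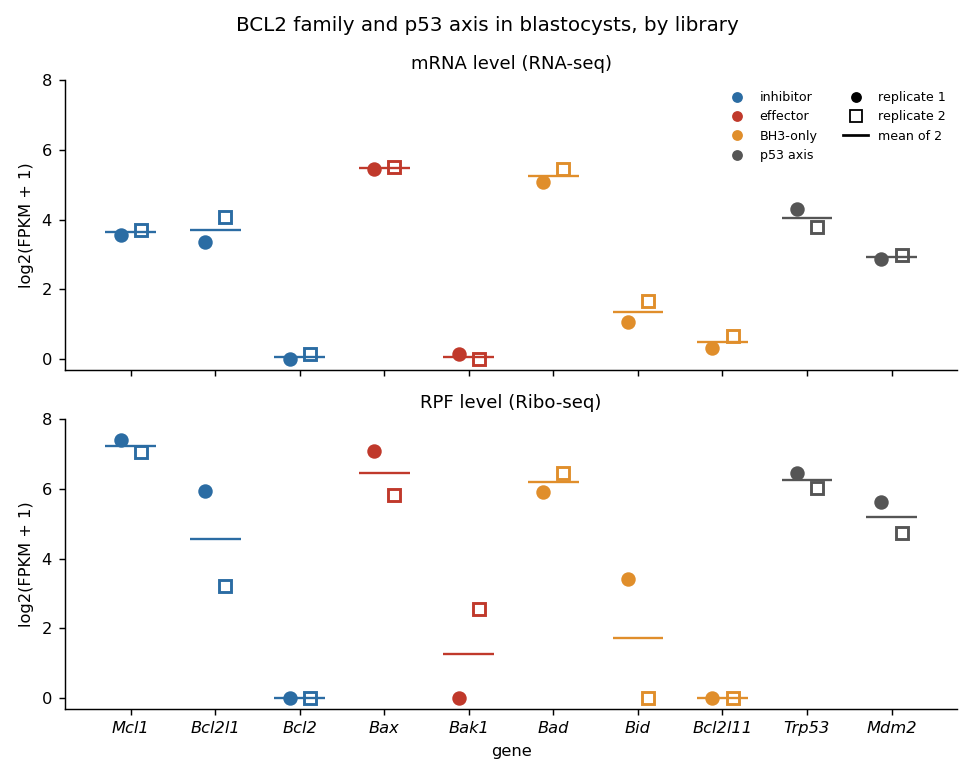
Levels of the 10 genes as log2(FPKM + 1), mRNA above and RPF below, with a filled circle for replicate 1, an open square for replicate 2 and a line at the mean of 2. Bax and Bad lead the mRNA panel and Mcl1 the RPF panel, Bcl2 and Bcl2l11 are at 0 in both Ribo-seq libraries, and the replicates of Bcl2l1, Bax, Bid and Bak1 lie apart in Ribo-seq.

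The effectors were represented by Bax. Bax encodes the cytosolic pore former that moves to mitochondria (chr7:52717065-52722268, minus strand, 6 exons). It had the highest mean mRNA level of the 10 genes, 42.6 and 44.0 FPKM, from 198 and 194 fragments. Its RPF level was 134 and 54.9 FPKM, from 27 and 10 footprints. The replicates were within 1.03-fold in mRNA but 2.45-fold apart in RPF, although their counting intervals of 88.3 to 195 and 26.2 to 101 FPKM overlapped. Bak1, the effector that resides in the mitochondrial membrane, was under the floor in all 4 libraries (chr17:27156755-27165954, minus strand, 6 exons). Values were 0.101 and 0 FPKM in mRNA and 0 and 4.83 FPKM in RPF, that is, 1 fragment and 1 footprint. In RNA-seq a Bak1 level above 0.251 to 0.264 FPKM would have passed the floor. A ratio of Bax to Bak1 was therefore not taken.

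Among the BH3-only genes, Bad was the one with a sizeable signal. Bad encodes a BH3-only protein that binds Bcl2l1 and Bcl2 proteins and is held inactive by 14-3-3 proteins after phosphorylation (chr19:7016351-7026388, plus strand, 4 exons). Its mRNA level was 32.4 and 42.7 FPKM and its RPF level 59.0 and 86.7 FPKM (13 and 17 footprints). The annotated exons of Bad share 25.8% of their bases with exons of Gpr137 on the other strand. Smart-seq2 does not mark strand, so reads there cannot be told apart, and Gpr137 was listed at 1.65 and 4.66 FPKM in RNA-seq. Bid encodes the BH3-only protein that caspase-8 cleaves (chr6:120841948-120866871, minus strand, 6 exons). The mRNA of Bid was at 1.08 and 2.16 FPKM, and its 2 and 0 footprints gave RPF levels of 9.73 and 0 FPKM. Bid shares 17.7% of its exonic bases with Bcl2l13 on the other strand, a gene listed at 3.27 and 2.35 FPKM. Bcl2l11 encodes BIM, which binds all the inhibitors (chr2:127951774-127988283, plus strand, 4 exons). BIM mRNA was at 0.242 and 0.582 FPKM. No footprint was seen in either replicate, with upper ends of the intervals at 17.7 and 19.6 FPKM.

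On the p53 axis both members were well above the floor in all 4 libraries. The mRNA level of Trp53 (chr11:69393861-69405375, plus strand, 11 exons) was 18.8 and 12.7 FPKM. Its RPF level was 86.7 and 63.7 FPKM, from 45 and 30 footprints. Mouse carries a processed Trp53 pseudogene, and 326 of 1146 28-base windows of the Trp53 coding sequence (28.4%) had 2 or more places in the genome. A larger number, 427 windows (37.3%), matched chromosome 17, since windows across exon junctions have no place in the gene itself. Reads from such windows could be shared or lost, and how the deposited values treated them was not tested. Mdm2 (chr10:117125944-117147814, minus strand, 12 exons) was at 6.28 and 6.95 FPKM in mRNA and at 48.4 and 25.7 FPKM in RPF (33 and 16 footprints). The Trp53 level exceeded that of Mdm2 in every library, by 2.996-fold and 1.83-fold in mRNA and by 1.79-fold and 2.48-fold in RPF. The ranges of this ratio overlapped between the assays.

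**Figure D2:**
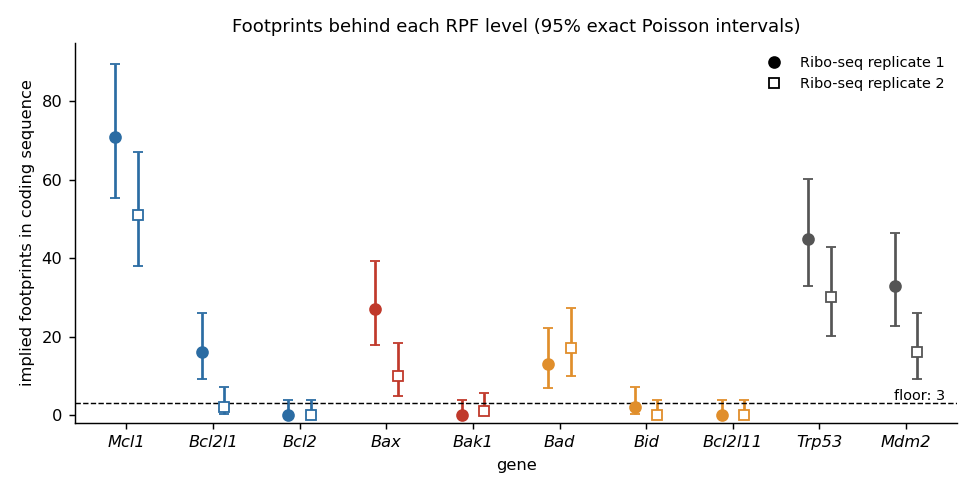
Footprints that the RPF level of each gene implies in its coding sequence, for Ribo-seq replicates 1 (filled circles) and 2 (open squares), with 95% exact Poisson intervals and the floor of 3 footprints as a dashed line. Mcl1, Trp53, Mdm2, Bax and Bad are above the floor in both replicates, Bcl2l1 in replicate 1 only, and Bcl2, Bak1, Bid and Bcl2l11 in neither.

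The order of the mean mRNA levels was Bax, Bad, Trp53, Bcl2l1, Mcl1, Mdm2, Bid, Bcl2l11, Bak1 and Bcl2. Replicates overlapped between Bax and Bad, between Trp53 and Bcl2l1, between Bcl2l1 and Mcl1, and between Bak1 and Bcl2, so these neighbours were not separated. The order of the mean RPF levels was Mcl1, Bax, Trp53, Bad, Mdm2, Bcl2l1, Bid and Bak1, with Bcl2 and Bcl2l11 at 0. Here the replicates of Bad and Mdm2 were the only neighbours that did not overlap. Beyond neighbours, Bcl2l1 was not separated from Bax and Bad either, since its 60.0 FPKM in replicate 1 lay above 54.9 FPKM for Bax in replicate 2 and 59.0 FPKM for Bad in replicate 1.

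The relation between RPF and mRNA was tested as the difference of log2(FPKM + 1), fitted with limma over the 8327 genes with a mean of at least 1 FPKM in both assays. Each library was first centred on its own median, which removed a shift of 1.502 between Ribo-seq and RNA-seq. A difference is therefore relative to these library medians, and the median difference over all genes tested was -0.24. On this scale a pseudocount of 1 understates the change of low genes. A gene was called at an adjusted p under 0.05 (Benjamini-Hochberg over all genes tested) and a difference of at least 1. Of all genes tested, 6.65% were called higher in RPF and 5.31% lower.

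Of the 10 genes, 7 passed the filter. Mcl1 was called higher in RPF and none was called lower, that is, 1 of 7 in one direction, beside the background of 6.65%. The difference of Mcl1 was 2.10 with an SE of 0.256 (95% interval 1.39 to 2.80, limma adjusted p = 0.0293), and both centred RPF values lay above both mRNA values. It was above the 95th percentile of all genes, 1.91. The median over the 7 genes was -0.53, beside -0.24 over all genes, and 3 of the 7 differences were positive (Mcl1, Trp53 and Mdm2), beside 41.7% of all genes.

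The call of Mcl1 rested on both RNA-seq libraries. Without RNA-seq replicate 1 its difference was 2.04 with an adjusted p of 0.309, and without RNA-seq replicate 2 it was 2.16 with an adjusted p of 0.327. These fits assume that the lone RNA-seq library varies like the Ribo-seq pair. In both, no gene was called at all, while 1279 and 1244 genes had an unadjusted p under 0.05. Over 12 alternatives the Mcl1 difference ran from 1.91 to 3.96, always positive, with adjusted p from 0.00362 to 0.327.

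The differences of the p53 pair were positive. That of Trp53 was 0.69 (SE 0.326, 95% interval -0.21 to 1.59, limma adjusted p = 0.208). That of Mdm2 was 0.75 (SE 0.368, 95% interval -0.26 to 1.77, limma adjusted p = 0.218). Neither passed the test, and both intervals reached beyond 1. Without Ribo-seq replicate 2, Mdm2 stood at 1.142 with an adjusted p of 0.0323, and without centring both genes were called higher (2.19 for Trp53 and 2.26 for Mdm2).

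The remaining 4 differences were negative on this scale, and none passed the test. The interval of Bcl2l1, with a difference of -0.64 (SE 0.984, limma adjusted p = 0.663), ran from -3.36 to 2.07. Its value turned to 0.66 without Ribo-seq replicate 2 and fell to -2.01 (adjusted p = 0.0165) without Ribo-seq replicate 1, so single libraries decided it. Bax had a difference of -0.53 (SE 0.480, 95% interval -1.85 to 0.79, limma adjusted p = 0.467), which was -1.18 (adjusted p = 0.0300) without Ribo-seq replicate 1 and 0.056 without replicate 2. Bad had a difference of -0.58 (SE 0.348, 95% interval -1.54 to 0.38, limma adjusted p = 0.297). Bid had a difference of -1.15 (SE 1.21, 95% interval -4.49 to 2.19, limma adjusted p = 0.527) on 2 footprints. Without centring all 4 of these differences were positive, 0.86 for Bcl2l1, 0.97 for Bax, 0.92 for Bad and 0.36 for Bid, so their sign depends on the centring. Bcl2, Bak1 and Bcl2l11 were under the filter and were not tested.

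**Figure D3:**
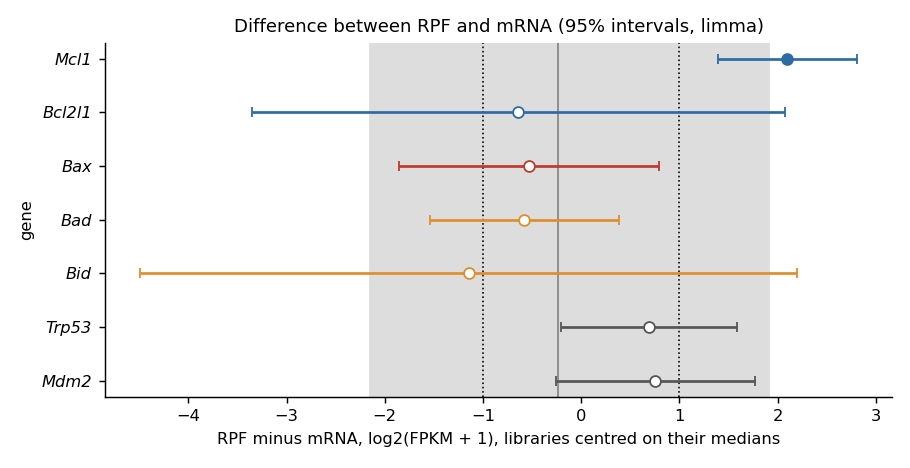
RPF minus mRNA in log2(FPKM + 1), each library centred on its median, for the 7 genes tested, with 95% intervals from limma and a filled point where the gene was called. The grey band spans the 5th to 95th percentiles of all 8327 genes (-2.15 to 1.91), the grey line is their median (-0.24) and the dotted lines mark a difference of 1 either way. Mcl1 lies to the right of the band, and the intervals of the other 6 genes cross 0.

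Summed over the classes, the inhibitors held a larger share of the RPF level than of the mRNA level of the 8 family genes. Their share was 20.7% and 23.8% of the summed FPKM in RNA-seq and 52.9% and 49.0% in Ribo-seq, and the assays did not overlap. With 12 other family genes added to their classes, the inhibitor share was 19.6% and 23.1% in RNA-seq and 40.8% and 30.3% in Ribo-seq, still without overlap but lower by more than 1.5 times in Ribo-seq replicate 2. The effector share was lower in Ribo-seq, with 44.3% and 37.5% in RNA-seq against 31.2% and 20.8%. The BH3-only share was 35.0% and 38.7% in RNA-seq and 15.9% and 30.2% in Ribo-seq. The inhibitor sum was 0.468 and 0.635 times the effector sum in RNA-seq and 1.70 and 2.35 times in Ribo-seq. Mcl1 made up 54.0% and 43.1% of the inhibitor sum in RNA-seq and 73.7% and 94.1% in Ribo-seq, the last beside 2 Bcl2l1 footprints. Of the other inhibitors, Bcl2l1 had a difference of -0.64 that was not called, and Bcl2 had no footprint. Shares without Mcl1 were not taken, so the shift is not shown for the class apart from Mcl1. The class shares of a library sum to a whole, so the lower effector share is not a separate result. These shares are a description, since the smallest p of 2 against 2 libraries is 0.333.

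The place of the BH3-only class in Ribo-seq depended on which genes were counted. With the 12 other genes, its share in Ribo-seq was 33.5% and 54.7%, and the BH3-only sum over the inhibitor sum went from 0.301 and 0.616 to 0.822 and 1.804. The gene behind this was Pmaip1, which encodes the BH3-only protein NOXA, a ligand of Mcl1 and a p53 target, and which was singled out after its values were seen. Its mRNA level was 0.747 and 1.02 FPKM, from 10 and 13 fragments along an annotated transcript of 2646 bases. Its RPF level was 118 and 167 FPKM, from 8 and 10 footprints in a coding sequence of only 312 bases. The intervals, 52.1 to 238 and 79.8 to 306 FPKM, overlapped those of Mcl1. However, 1 footprint was worth 15.1 and 16.6 FPKM in Pmaip1, against 2.36 and 2.60 FPKM in Mcl1. Mcl1 had 71 and 51 footprints in 996 bases, so Pmaip1 had fewer footprints per base in both replicates. The short coding sequence thus overstates the Pmaip1 level beside Mcl1, and the BH3-only sum with it. Since its mean mRNA level of 0.886 FPKM was under the filter, Pmaip1 was not tested. The inhibitor sum remained above the effector sum in both Ribo-seq replicates with the other genes included, 1.58-fold and 2.03-fold.

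**Figure D4:**
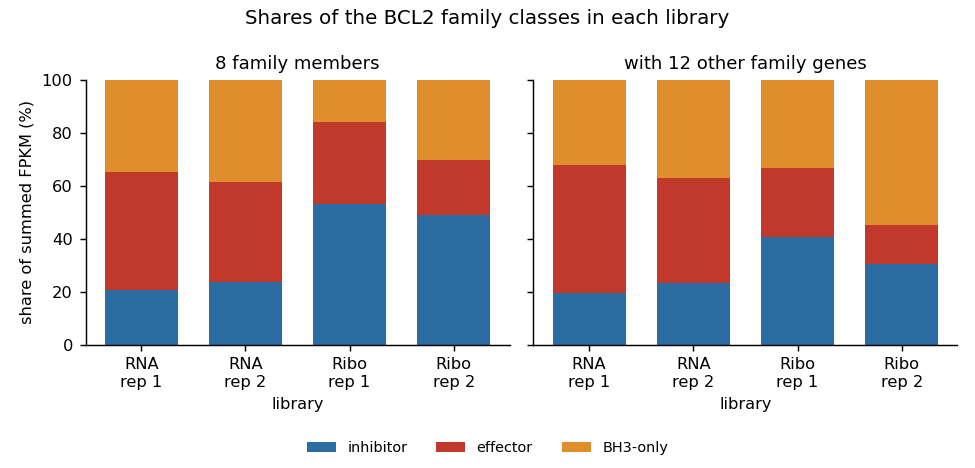
Share of inhibitors, effectors and BH3-only genes in the summed FPKM (%) in each library, for the 8 family members (left) and with 12 other family genes added (right). The inhibitor share in Ribo-seq is 52.9% and 49.0% on the left and 40.8% and 30.3% on the right, where the BH3-only share reaches 54.7% in Ribo-seq replicate 2.

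The rest of the pathway was read from 5 lists. Their counts stand beside the background of 6.65% higher and 5.31% lower, and their medians beside -0.24 over all genes. Of 19 other BCL2 family genes, only 7 passed the filter and 6 were listed at 0 in all 4 libraries, among them Bbc3, which encodes the BH3-only protein PUMA, and the Bcl2a1 copies. Bnip3l, a mitophagy receptor, was called higher (1.52, limma adjusted p = 0.0393) and none was called lower, with a median of 0.32. Its mRNA level was 16.6 and 17.4 FPKM and its RPF level 159 and 133 FPKM. With a pseudocount of 0.1 its adjusted p was 0.0586. Bnip3, its paralog and the family gene with the highest mRNA, was at 100 and 80.01 FPKM in mRNA and at 332 and 309 FPKM in RPF (0.32, adjusted p = 0.421). Becn1, an autophagy protein with a BH3 region, had a difference of -0.10 (adjusted p = 0.778).

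Of 27 genes of the p53 family and its regulators, 23 were tested, none was called higher and 2 were called lower, with a median of 0.24. Mdm4, the partner of Mdm2 that inhibits p53, had mRNA levels of 9.85 and 13.3 FPKM, above those of Mdm2, but RPF levels of only 6.33 and 4.87 FPKM, from 4 and 3 footprints. The count of Mdm4 in Ribo-seq replicate 2 was at the floor, and the counting intervals were wide, 1.61 to 15.1 and 1.01 to 14.3 FPKM. Its difference was -2.42 with an SE of 0.283 (limma adjusted p = 0.0271). That of Mdm2 was in the opposite direction but was not called, and the difference between Mdm2 and Mdm4 was not tested. Rps7, a ribosomal protein that binds Mdm2, was also called lower (-1.83, limma adjusted p = 0.0303). Further Mdm2-binding ribosomal proteins among the 3 with the highest mRNA, Rpl23 and Rpl11, had differences of 0.99 and 0.84 (adjusted p = 0.0711 and 0.112). Ribosomal protein genes have many pseudogene copies, so reads of these 3 may be split. Trp63 and Trp73, which encode the relatives of p53, and Cdkn2a, whose products include the Mdm2 inhibitor ARF, were listed at 0 in all 4 libraries.

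Of 28 p53 target genes, 23 were tested, 3 were called higher and 1 lower, with a median of -0.19. Phlda3, an inhibitor of AKT at the membrane, was called higher with a difference of 2.28 (limma adjusted p = 0.0414). It was at 5.00 and 9.21 FPKM in mRNA and at 96.5 and 118 FPKM in RPF. Aen, a nuclease of apoptosis, was called higher with a difference of 2.02 (limma adjusted p = 0.0425). Tigar, a phosphatase that dampens glycolysis, was called higher with a difference of 1.84 (limma adjusted p = 0.0342). Eda2r, a TNF receptor family member, was called lower with a difference of -2.63 (limma adjusted p = 0.0444), and its RPF level was 5.41 and 2.98 FPKM. These values are low, since the floor of 3 footprints for a sequence of 1000 bases was 7.05 and 7.77 FPKM in Ribo-seq replicates 1 and 2. Footprints of Eda2r were not counted, so its call may rest on very few. With a pseudocount of 0.1 none of the 23 was called in either direction, and the adjusted p of these 4 genes was 0.0524 to 0.0658. The 3 tested targets with the highest mRNA were Sfn (154 and 159 FPKM), Perp (107 and 55.5 FPKM) and Ccng1 (30.2 and 45.1 FPKM), and their differences of 0.54, -0.69 and -0.99 did not pass. Fas, the death receptor, was listed at 0 in all 4 libraries.

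Downstream of the mitochondria, 20 of 21 genes of the apoptosome, the caspases and their inhibitors were tested, none was called higher and 1 lower, with a median of -0.55. Dffa, the inhibitor of the apoptotic nuclease, was called lower with a difference of -2.05 (limma adjusted p = 0.0290). Dffa was at 21.9 and 22.4 FPKM in mRNA and at 14.1 and 15.6 FPKM in RPF. Birc5 (survivin, a mitotic and caspase-inhibiting protein) had the highest mRNA of the list, 370 and 420 FPKM, with a difference of -0.64 (adjusted p = 0.185). Cycs, cytochrome c, was at 143 and 171 FPKM in mRNA and at 1143 and 1697 FPKM in RPF (1.65, adjusted p = 0.0556). Diablo, which relieves the inhibition of caspases, had a difference of -0.85 (adjusted p = 0.0878).

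All 22 partners and turnover factors of BCL2 family proteins were tested, 4 were called higher and 1 lower, with a median of 0.28. Pim1, a kinase that phosphorylates Bad, had the largest difference among the tested genes of the 5 lists, 3.70 with an SE of 0.247 (limma adjusted p = 0.0164). Its mRNA level was 2.11 and 2.61 FPKM and its RPF level 130 and 116 FPKM, from 69 and 56 footprints. Vdac1, a channel of the outer mitochondrial membrane, was called higher (1.61, limma adjusted p = 0.0376), whereas its relative Vdac3 was called lower (-1.35, limma adjusted p = 0.0492). Tmbim6, an apoptosis inhibitor of the endoplasmic reticulum, was called higher (1.35, limma adjusted p = 0.0462), as was the 14-3-3 gene Ywhab (1.31, limma adjusted p = 0.0472), named for completeness after its values were seen. The 14-3-3 genes with the highest mRNA, Ywhaz (654 and 540 FPKM) and Ywhae (222 and 233 FPKM), had differences of -0.22 and 1.17 that did not pass. With a pseudocount of 0.1 only 1 of the 22 was called higher, Pim1, and none lower. Without centring no gene of the 5 lists was called lower, and without either RNA-seq library no gene was called in either direction.

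**Figure D5:**
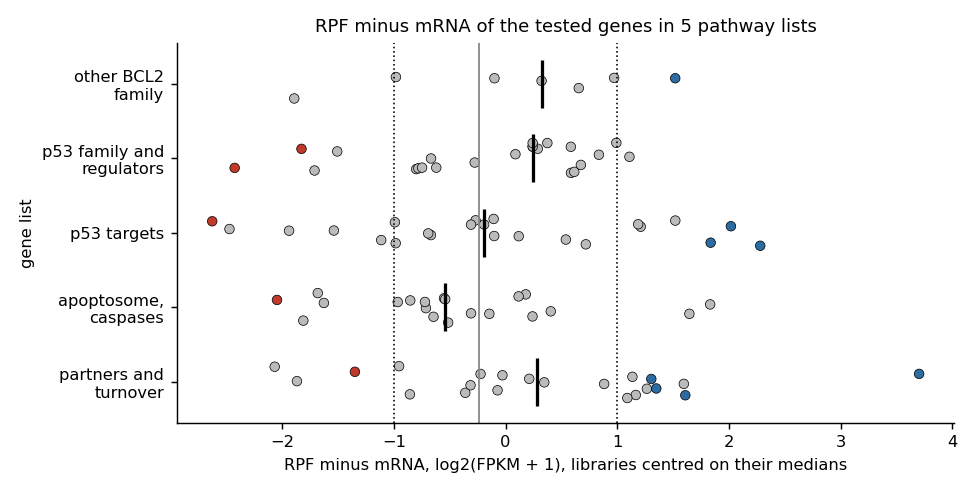
RPF minus mRNA in log2(FPKM + 1), each library centred on its median, for the tested genes of 5 pathway lists, 1 point a gene (vertical scatter carries no value), blue where called higher, red where called lower and grey otherwise, with a black bar at each list's median. The grey line is the median of all genes (-0.24) and the dotted lines mark a difference of 1 either way. Pim1 lies farthest to the right, at 3.70.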

How the data were processed

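Values are FPKM, as the authors deposited them, 1 column a library. Reads were trimmed by Trim Galore 0.4.2 (RNA-seq) or cutadapt 1.14 (Ribo-seq), rRNA footprints were removed with Bowtie2 2.2.2, and STAR 2.5.3a mapped the rest to the mm9 transcriptome with up to 20 places a read. FPKM came from Cufflinks 2.2.1, over whole transcripts in RNA-seq but over the coding regions alone in Ribo-seq, so footprints in UTRs did not count. Where a symbol recurred, the highest value was used. The fit used limma 3.58.1 in R 4.3.3, with a pseudocount of 1 and no replicate block. Depth was read from low values of genes with 1 annotated length, with the effective length of Cufflinks (fragments of mean 200 and SD 80 bases). Of these values, 61.4% to 80.4% were within 0.1 of a whole fragment, where chance gives 20%, so the implied counts are estimates. Counts of a named gene used its longest annotated length. For genes with several, such as Bcl2l1 with 7 coding lengths from 234 to 708 bases, counts and intervals depend on this choice. Sequences, coordinates and exons came from GENCODE vM1 on NCBIM37, the assembly of mm9. Named genes were the 10 members and, in each list, the 3 tested genes with the highest mRNA and up to 3 called genes with the largest difference in each direction. Outside this rule, Bbc3, the Bcl2a1 copies, Trp63, Trp73, Cdkn2a and Fas were named as untested genes without signal. Pmaip1, Ywhab and the overlapping genes Gpr137 and Bcl2l13 were also named outside it. The members and lists were chosen with earlier results of these data known. Alternatives were another pseudocount, 2 other filters, quantile normalization, no centring, summed repeated symbols, an intensity trend, a replicate block, and leaving out each library.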

Additional observations from a re-analysis of the deposited data

How the results depend on the processing

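The counts over all genes, 554 higher and 442 lower, changed with the processing. They were 308 and 154 with a pseudocount of 0.1, 5330 and 158 with no filter on low values, 4113 and 65 with no centring, and 861 and 716 with an intensity trend. With a minimum of 5 FPKM, 751 genes were called lower. Among the 10 members, 4 were called higher with no filter and 3 with no centring. Leaving out each library in turn gave 0 to 1187 genes higher and 0 to 1647 lower, and 0 to 2 members in each direction.

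Whether the replicate numbers pair the samples is not given in the labels. The deviations of same-numbered libraries correlated at 0.00994. This value cannot decide it, since the spread within each assay could hide a shared part. With the replicate block, limma called 0 genes higher, 0 lower and 0 members, while 2594 genes, 1 of them a member, had an unadjusted p under 0.05. The difference of Mcl1 was then 2.10 with an adjusted p of 0.107.

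Several signs turned. With no filter, the differences were 1.22 for Bcl2l1, 1.34 for Bax, 1.29 for Bad (adjusted p = 0.0429) and 0.72 for Bid, and 1.77 for Becn1, 0.039 for Rps7, 0.88 for Ccng1, 1.17 for Perp, 1.01 for Diablo, 1.22 for Birc5, 0.52 for Vdac3 and 1.64 for Ywhaz. With no centring they were 0.86 for Bcl2l1, 0.97 for Bax, 0.92 for Bad and 0.36 for Bid, and 1.40 for Becn1, 0.51 for Ccng1, 0.81 for Perp, 0.65 for Diablo, 0.86 for Birc5, 0.15 for Vdac3 and 1.28 for Ywhaz. Both settings keep or enlarge the offset between the assays. Quantile normalization gave 0.12 for Bid. Leaving out each library in turn gave -2.01 to 0.66 for Bcl2l1, -1.18 to 0.056 for Bax and -1.44 to 0.51 for Bid, with the positive ends without Ribo-seq replicate 2, and the cause was not tested. With other family genes counted, the mean ratio of BH3-only to inhibitor sums in Ribo-seq was 1.31. Quantile normalization moved 10 of the members' mean levels by more than 1 SD. Of 82 values for the members' differences, 60 kept their direction and their side of the threshold. Trp53 and Mdm2 were also called higher with no filter and with no centring. Depth limited the Ribo-seq values of Bcl2, Bak1, Bid and Bcl2l11, at 0 to 2 footprints.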
